A study of Mus musculus with 46 samples.

Results

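Interferon-stimulated genes are the genes that cells switch on when interferon reaches its receptor. A list of 39 of them was followed here through 46 mouse RNA-seq libraries from pancreatic islets and livers, taken from controls and from animals labelled as knockouts of Tfam, Clec16a or both mitofusins, all of which serve mitochondria. The members were taken by gene symbol out of the 55487 genes in the deposited tables. 38 matched directly, and the sensor listed as Tmem173 was matched by its identifier under the newer symbol Sting1. The list holds 6 sensors of foreign or misplaced nucleic acid, 4 transcription factors, 10 genes of the Ifit, Oas and Mx families, 12 other antiviral genes, 5 interferon-inducible GTPases and 2 secreted proteins.

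Type I interferon binds a pair of receptor chains, the kinases Jak1 and Tyk2 are activated, and a complex that holds Stat2 and Irf9 forms on a DNA element called the interferon-stimulated response element. Cells make interferon when sensors meet foreign nucleic acid, and mitochondrial DNA or RNA that leaks into the cytosol can be met by the same sensors: Cgas signals through Sting1, and Ddx58 and Ifih1 signal through Mavs on the mitochondrial surface. The comparisons below therefore address whether mitochondrial damage came with an interferon response in these tissues.

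The series holds 3 experiments. The first compared islets labelled Tfam KO with islets labelled Tfam control, in females (5 control and 4 knockout libraries) and males (3 control and 2 knockout libraries). Tfam packages and transcribes mitochondrial DNA. The second compared islets labelled Clec KO with Clec control on 2 diets labelled RFD (4 control and 4 knockout libraries) and HFD (6 control and 5 knockout libraries). Clec16a takes part in mitophagy, the removal of damaged mitochondria. The third compared livers, whose descriptions begin with AAVliver, of 6 controls, 4 animals labelled Mfn DKO and 3 labelled Tfam KO. Mfn1 and Mfn2 fuse mitochondria. Islets had been cultured overnight and livers flash frozen. The labels call the libraries biological replicates and give no Cre driver, strain or age for any group, and no sex for the Clec islets or the livers.

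Library totals were 55223041 to 83342809 counts for Tfam islets, 16235173 to 55810879 for Clec islets and 41961114 to 56894510 for livers. Tfam fell in the Tfam KO islets (log2 fold change -1.21 ± 0.06 SE) and in the Tfam KO livers (-2.0 ± 0.11), and Mfn1 and Mfn2 fell in the Mfn DKO livers (-2.0 ± 0.15 and -2.04 ± 0.16). Clec16a was not lower in the libraries labelled Clec KO: its log2 fold change was 0.13 ± 0.13 on RFD and 0.08 ± 0.11 on HFD, and the labels do not say which part of the gene was removed. Insulin and other beta cell markers were present in every islet group. Alb was high in the livers, although replicate 2 of the Tfam KO livers had 17648 CPM (counts scaled to a common library size) of Alb against 58854 to 104525 in the controls. In bulk tissue, fewer cells of a type and less RNA per cell cannot be told apart.

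Many of the members carry the response element close to their start. In the 250 bases before each RefSeq start site (build GRCm38.p6), the core of the element, which is GAAA, any 2 bases and another GAAA, was found on either strand in 14 of the 29 members that the promoter table holds (48.3%), against 3.04% of 27025 promoters. The core TTCNNNGAA of the gamma-activated site was found in 6 of the 29 (20.7%), against 7.18% of all promoters. A match describes letters, not a bound site. The 6 stretches of 40 bases shown here come from members named in the results below: a transcription factor, an Ifit gene, a ubiquitin-like modifier, both kinds of interferon-inducible GTPase and a chemokine. Each is written 5′ to 3′ on the strand of its gene with the matching bases in capitals. On the opposite strand the core reads TTTC, any 2 bases and another TTTC. Where capitals run past 10 bases, matches overlap.
Stat2, chr10:128270261-128270300, plus strand: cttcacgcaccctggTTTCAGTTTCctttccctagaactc
Ifit3, chr19:34583358-34583397, plus strand: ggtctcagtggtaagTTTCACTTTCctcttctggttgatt
Isg15, chr4:156200872-156200911, minus strand: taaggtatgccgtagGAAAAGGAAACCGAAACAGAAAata
Gbp3, chr3:142559984-142560023, plus strand: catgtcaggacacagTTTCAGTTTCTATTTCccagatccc
Irgm1, chr11:48871426-48871465, minus strand: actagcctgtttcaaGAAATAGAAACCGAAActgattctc
Cxcl10, chr5:92349078-92349117, minus strand: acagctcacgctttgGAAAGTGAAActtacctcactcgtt
Read 5′ to 3′, the first match ends 213 bases before the start of Stat2, 147 before Ifit3, 69 before Isg15, 36 before Gbp3, 21 before Irgm1 and 204 before Cxcl10.

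Members also cluster on the chromosomes. Ifit1, Ifit2 and Ifit3 lie together on chromosome 19, Oasl1 and Oasl2 on chromosome 5, Oas1a, Oas2 and Oas3 farther along the same chromosome, Gbp2, Gbp3 and Gbp7 on chromosome 3, and Mx1 and Mx2 on chromosome 16. Parp14 (35832874 to 35871544 of chromosome 16), Dtx3l (35926511 to 35939151) and Parp9 (35938470 to 35972605) are neighbours, and Dtx3l and Parp9 overlap at their starts on opposite strands. In all, 17 of the 39 members overlap another annotated gene, among them Irf7, Irf9, Rtp4, Igtp and Cxcl10. Whether the counting used strand is not given in the sources used here, so reads in such overlaps may belong to either gene.

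All 39 members were detected in both tissues without any knockout. Levels are compared between genes only as TPM, the authors' deposited abundance unit, which accounts for transcript length. In control islets the median member had 4.8 TPM and in control livers 9.80 TPM. For 17 of the 39 members every control liver lay above every control islet, for 1 every liver lay below, and for 21 the tissues overlapped. Of the 21794 genes tested over both tissues, 17.4% lay above in this way and 32.5% below. Tissue, experiment and handling cannot be told apart in these ranges.

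Bst2, which tethers budding virus to the cell, had a mean of 18.7 TPM in control islets (9.82 to 29.7) and 364.4 in control livers (271 to 511). Isg15, a ubiquitin-like protein attached to other proteins, had 3.88 TPM in islets and 52.0 in livers. Irf7, the factor that amplifies interferon production, had 4.8 and 41.2 TPM. Zbp1, a sensor of Z-form nucleic acid, had 0.516 and 8.39 TPM. Lgals3bp, a secreted glycoprotein, went the other way, with 431 TPM in islets (295 to 577) and 56.5 in livers (45.0 to 71.2). At the low end, Oas3 had 0.142 TPM in islets and 0.848 in livers, and Cgas had 0.292 and 0.325. In islets 5 of the 39 members were under 1 TPM, and in livers 2.

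**Figure D1:**
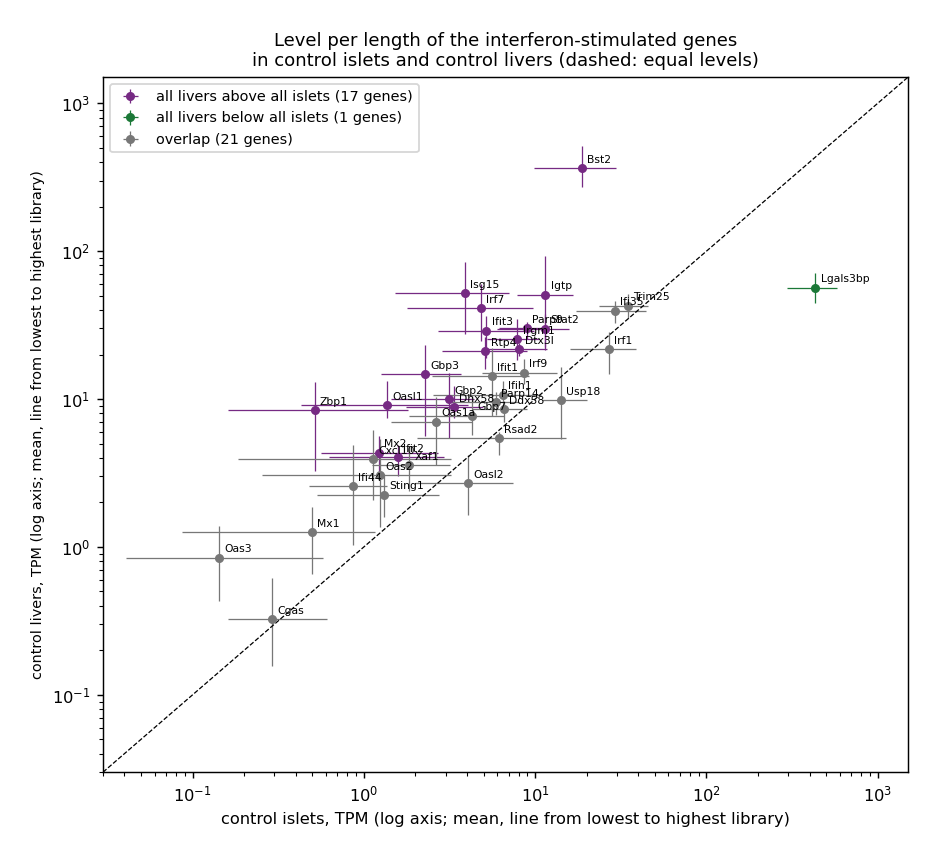
Mean level per transcript length, in TPM on log axes, of each of the 39 interferon-stimulated genes in control islets (horizontal) and control livers (vertical). Lines run from the lowest to the highest library. For 17 genes all livers lay above all islets, for Lgals3bp all lay below, and the other 21 overlapped.

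A mean over the members, taken as log2(CPM + 0.5) averaged over the 39 genes, gave 1 level per library. CPM are given after library size normalization. It was 2.96 ± 0.26 (SD, n = 5) in control female islets, 2.61 ± 0.05 (n = 3) in control males, 2.64 ± 0.09 (n = 4) in Tfam KO females and 2.72 ± 0.21 (n = 2) in Tfam KO males. In the Clec islets it was 2.86 ± 0.05 (n = 4) in RFD controls, 2.76 ± 0.08 (n = 4) in RFD knockouts, 3.13 ± 0.30 (n = 6) in HFD controls and 2.99 ± 0.21 (n = 5) in HFD knockouts. In livers it was 4.15 ± 0.29 (n = 6) in controls, 4.06 ± 0.29 (n = 4) in Mfn DKO and 3.20 ± 1.0 (n = 3) in Tfam KO. Among the knockout groups, the Tfam KO males alone had a mean above that of their controls, with 2.87 and 2.57 in the 2 knockouts and 2.56 to 2.65 in the 3 controls.

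**Figure D2:**
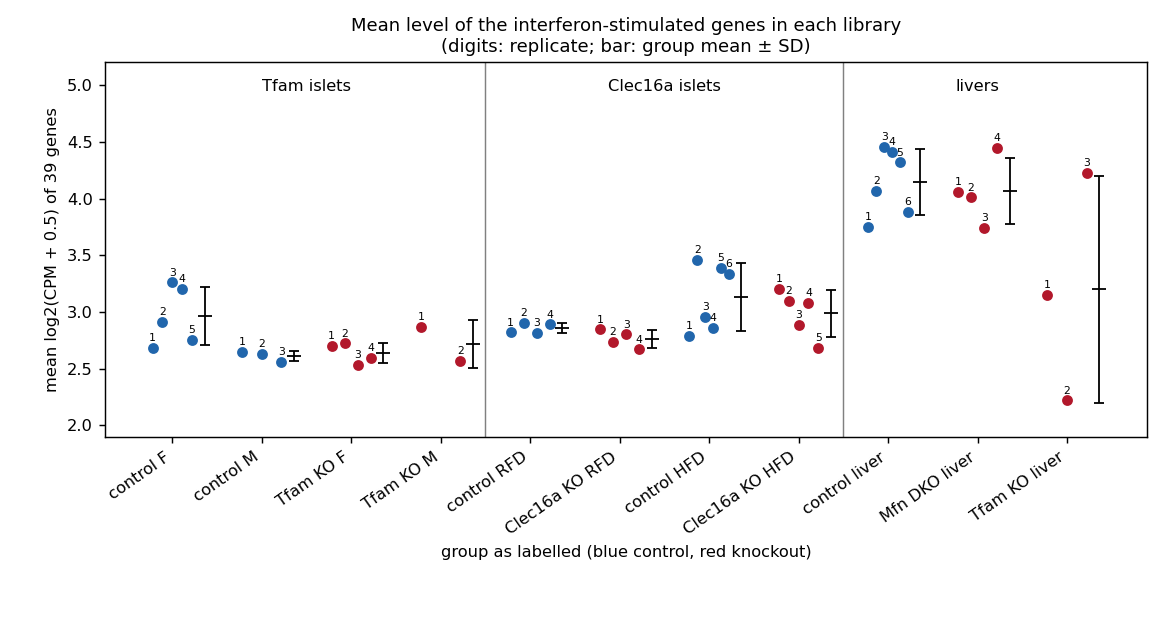
Mean log2(CPM + 0.5) of the 39 genes in each of the 46 libraries, by group, with controls in blue, knockouts in red, replicate numbers over the points and bars of group mean ± SD. Control female islet replicates 3 and 4 and control HFD replicates 2, 5 and 6 stand above their groups, and the 3 Tfam KO livers spread from 2.22 to 4.22.

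Genes were tested with edgeR's quasi-likelihood test on the counts, with p-values adjusted by Benjamini-Hochberg over all genes of each fit, and a gene is said to rise or fall where the adjusted p was at most 0.05. All 39 members passed the filter on low counts in every fit. Across 7 knockout comparisons (Tfam islets with both sexes together and apart, Clec islets on each diet, and both liver knockouts) there were 273 member values. 31 of them passed, 3 higher and 28 lower. In the same comparisons 3.99% to 18.1% of all genes rose and 3.54% to 11.3% fell. 20 members passed at least once and 19 never. The Tfam islet comparison of both sexes reuses all libraries of the female and male comparisons, so some members are counted again. The comparisons that share control libraries are not independent of each other either.

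**Figure D3:**
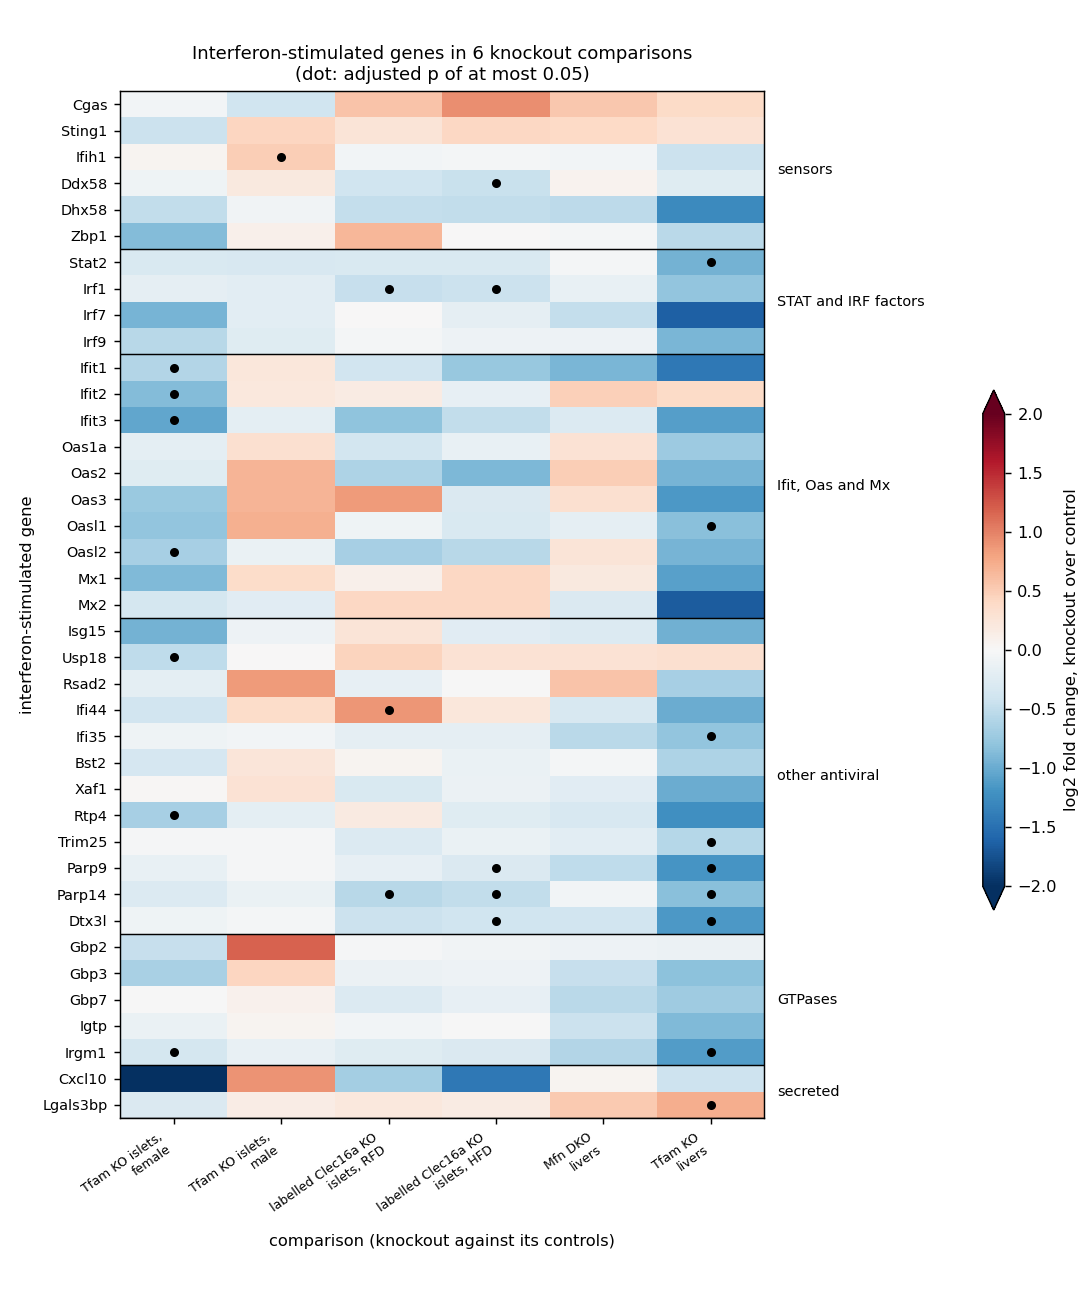
Log2 fold change of knockout over control for each of the 39 genes (rows, grouped by role) in 6 comparisons (columns), with blue lower and red higher in the knockout. A dot marks an adjusted p of at most 0.05: there are 7 dots in female Tfam islets, 1 in male Tfam islets, 3 and 5 in the Clec islets on RFD and HFD, none in Mfn DKO livers and 9 in Tfam KO livers.

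In Tfam KO islets no member rose and 6 fell when both sexes were fitted together with sex as a term: Stat2, Irf9, Ifit3, Oasl2, Rtp4 and Irgm1. The 6 are 15.4% of the members, against 9.29% of all 19752 genes tested that fell and 11.6% that rose. Across the members the log2 fold change was negative for 32 of 39, and its median was -0.23, against -0.01 over all genes. The 95% upper bound of the change lay under a doubling for all 39 members.

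Stat2, a transcription factor of the type I interferon response, had 27.3, 26.5, 27.0, 21.3 and 25.3 CPM in control female islets and 20.2, 23.2, 19.4 and 20.1 in Tfam KO females. In males it had 28.6, 24.7 and 23.7 CPM in controls and 23.4 and 17.8 in knockouts. Control female replicate 4 lay among the knockouts, and in the males both knockouts lay below all 3 controls. Its log2 fold change was -0.30 ± 0.08 (adjusted p = 0.0106, edgeR), and it passed under all 23 alternative settings and left-out libraries.

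Irf9, the DNA-binding subunit of the same complex, had 20.2, 18.8, 19, 16.4 and 14.6 CPM in control females and 13.6, 12.9, 11.2 and 10.6 in knockout females, with no overlap. In males the 3 controls had 24.7, 13.5 and 12.4 CPM and the 2 knockouts 17.1 and 11.3, which overlap. The change of -0.45 ± 0.15 (adjusted p = 0.0461, edgeR) was lost in 10 of 23 alternatives, 9 of them with 1 library left out.

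Ifit3, which sits in a complex with Ifit1 on viral RNA, had 4.78, 5.98, 8.08, 5.35 and 2.89 CPM in control females and 3.08, 3.22, 2.09 and 2.08 in knockouts. The male controls had 2.45, 3.39 and 3.53 CPM and the male knockouts 3.56 and 1.86. The female controls spread widely and their replicate 5 lay among the knockouts. The change was -0.74 ± 0.24 over both sexes (adjusted p = 0.0352, edgeR) and -1.05 ± 0.27 in females alone (adjusted p = 0.0221, edgeR).

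Oasl2, a relative of the oligoadenylate synthetases, had 6.34, 9.33, 13.7, 10.1 and 8.81 CPM in control females and 6.22, 7.17, 5.84 and 5.16 in knockouts. In males the controls had 5.62, 7.33 and 7.07 CPM and the knockouts 6.26 and 5.95. Only control female replicate 1 lay within the range of the female knockouts. The change over both sexes was -0.47 ± 0.15 (adjusted p = 0.0391, edgeR), and 13 of 23 alternatives lost it.

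Irgm1, a GTPase of autophagy and pathogen control, had 20.1, 23.4, 25.5, 26.6 and 19.6 CPM in control females and 17, 17.8, 18.1 and 19.3 in knockouts, with no overlap. In males the controls had 21.4, 22.6 and 20.3 CPM and the knockouts 20.3 and 18.6. The change of -0.28 ± 0.08 (adjusted p = 0.0177, edgeR) held in all 23 alternatives. Rtp4, a chaperone of membrane receptors induced by interferon, had a change of -0.50 ± 0.15 (adjusted p = 0.027, edgeR) and held in 19 of the 23.

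The sexes were also compared apart. In females 7 members (17.9%) fell and none rose, against 4.17% and 6.67% of all genes: Ifit1 (-0.59 ± 0.16), Ifit2 (-0.87 ± 0.20), Ifit3, Oasl2 (-0.66 ± 0.18), Usp18 (-0.50 ± 0.14), Rtp4 (-0.67 ± 0.18) and Irgm1 (-0.35 ± 0.09). Ifit2 had 3.35, 3.76, 5.39, 4.62 and 2.67 CPM in the controls and 2.31, 2.26, 1.67 and 2.40 in the knockouts, without overlap. Usp18, which removes Isg15 from proteins and dampens the receptor, had 15.7 to 26.8 CPM in the controls and 12 to 16.4 in the knockouts, with an overlap of control replicate 5. The median member changed by -0.36, and 37 of 39 were negative.

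In males 1 member (2.56%) rose and none fell, against 5.24% and 3.69% of all genes, which is no more than the background. That was Ifih1, a sensor of long double-stranded RNA, with 19.2, 23.7 and 24.4 CPM in controls and 32.2 and 30.8 in knockouts. Its change was 0.49 ± 0.15 (adjusted p = 0.048, edgeR), and 12 of 22 alternatives lost it. In female islets Ifih1 had 29.4 to 41.3 CPM in controls and 31.0 to 40.3 in knockouts, which overlap. The median member changed by 0.09 in males, with 22 of 39 positive. With 2 knockout males, 11 members had an upper bound above a doubling.

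The difference between the sexes was tested directly. No member passed, and no gene of the 19752 did (0.0%), while 8 members and 1230 genes had an unadjusted p under 0.05. The male minus female change was positive for 35 of 39 members, with a median of 0.51. It was 3.72 ± 1.37 for the chemokine Cxcl10 and 1.63 ± 0.46 for Gbp2, with adjusted p of 0.691 and 0.602 (edgeR). Cxcl10 had 0.181, 1.32, 3.35, 3.61 and 0.316 CPM in control females and 0.0821 to 0.373 in knockout females. In males Cxcl10 had 0.196 to 1.0 CPM in controls and 1.64 and 0.237 in knockouts. Its male part therefore rested on knockout replicate 1, while in females control replicates 2, 3 and 4 lay above every knockout. Gbp2 had 7.29 and 2.93 CPM in knockout males against 1.71 to 2.79 in control males, and its female groups overlapped.

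Control female replicates 3 and 4 had the highest member means of the experiment, 3.26 and 3.20, and were the highest of all 14 libraries for 17 and 12 members. Summed macrophage markers (12 genes) were 232 CPM in replicate 3 and 176 in replicate 4, against 118 to 135 in the other control females and 130 to 165 in knockout females. Summed acinar markers (10 genes) were 10316 CPM in replicate 4 and 1070 to 5235 in the other control females. Without both libraries, Ifih1 (0.31) and Rsad2 (0.56) passed as higher and Stat2 (-0.34), Parp14 (-0.32) and Irgm1 (-0.20) as lower, with both sexes together. In females alone 3 members then fell. The share of all genes called in these fits is not given here.

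Other markers moved as well. All 8 beta cell markers fell in Tfam KO islets. Summed lymphocyte markers (12 genes) were 11.5 to 17.6 CPM in the controls of both sexes and 2.99 to 5.93 in the knockouts, and 1 of the 9 tested, Cd79a, fell. In males 3 of 10 macrophage markers tested rose, and their sum was 197 and 204 CPM in knockouts against 118 to 128 in controls. In the same males 3 of 8 fibroblast markers rose, with sums of 84.3 and 86.0 CPM against 34.8 to 50.9, and alpha cell sums were 51980 and 38985 CPM against 25104 to 34831, with none of 5 called. The part of these cells in the member values was not tested. For the fits with 1 library left out, the share of all genes called is not given here. The counts that follow therefore have no background beside them. The count of called members over both sexes was 2 without knockout female replicate 3 or replicate 4, and 3 without control female replicate 2, knockout female replicate 1, knockout female replicate 2 or knockout male replicate 2. In females alone it was 1 without knockout replicate 3, 2 without knockout replicate 4 and 11 without control replicate 1. The male count was 0 with any of 9 single libraries left out and 2 without control female replicate 4.

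**Figure D4:**
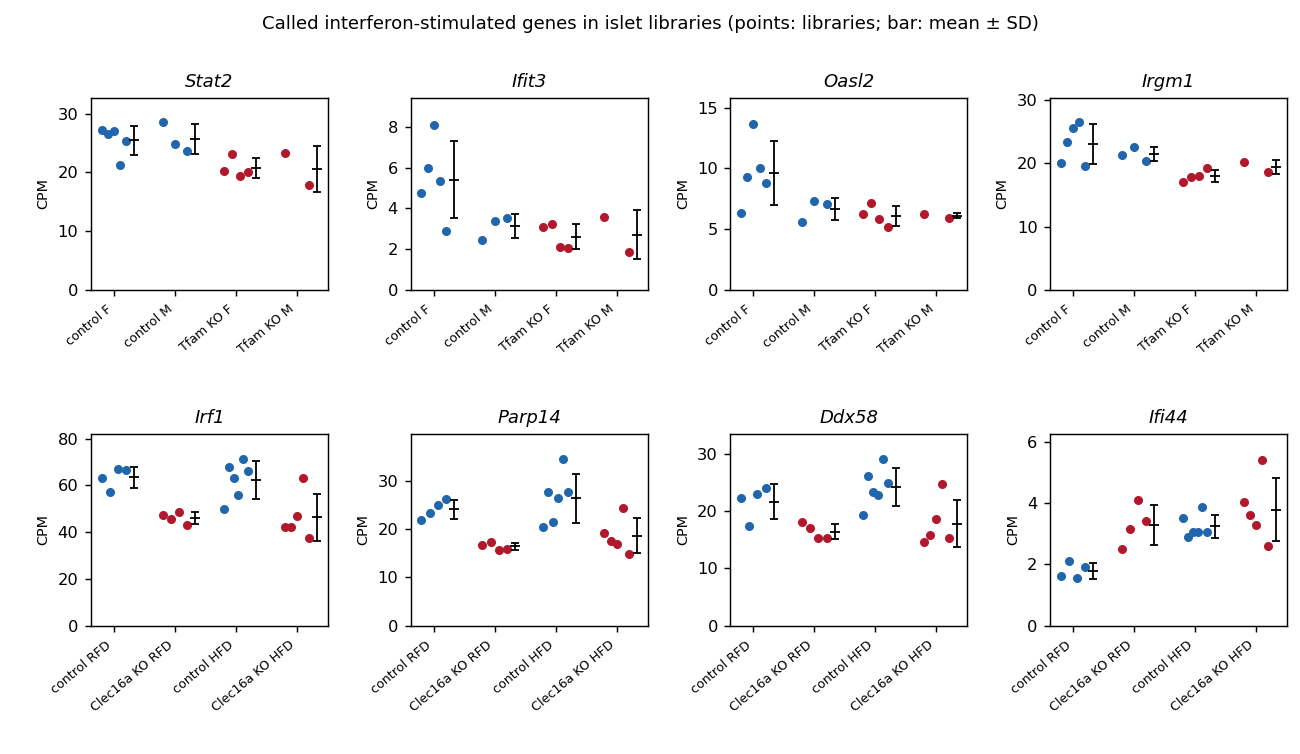
CPM of 8 called interferon-stimulated genes in islet libraries, 4 from the Tfam experiment (top) and 4 from the Clec experiment (bottom), on axes that start at 0. Points are libraries, blue for controls and red for knockouts, and bars are mean ± SD. Irf1 and Parp14 lie lower in all 4 RFD knockouts than in all 4 RFD controls, while Ifit3 overlaps between control and knockout females.

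In islets labelled Clec KO on RFD, 1 member (2.56%) rose and 2 (5.13%) fell, against 3.99% and 3.54% of 17254 genes, shares near the background. Irf1, a factor shared by type I and type II interferon, had 63.2, 57.3, 67.1 and 66.5 CPM in controls and 47.4, 45.5, 48.7 and 43.0 in knockouts. Parp14, a mono-ADP-ribosyltransferase, had 21.8, 23.3, 25.0 and 26.2 CPM in controls and 16.8, 17.4, 15.7 and 15.9 in knockouts. Neither overlapped between groups. Their changes were -0.46 ± 0.13 (adjusted p = 0.0402, edgeR) and -0.55 ± 0.15 (adjusted p = 0.0289, edgeR).

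Ifi44, an antiviral gene of the type I response, rose on RFD. It had 1.61, 2.12, 1.54 and 1.91 CPM in controls and 2.52, 3.16, 4.11 and 3.40 in knockouts, without overlap. Its change was 0.88 ± 0.21 (adjusted p = 0.0156, edgeR). On HFD it had 2.89 to 3.88 CPM in controls and 2.61 to 5.39 in knockouts, which overlap and did not pass.

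In islets labelled Clec KO on HFD no member rose and 5 (12.8%) fell, against 5.62% and 3.95% of all genes. Irf1 had 49.8, 67.8, 63.0, 56.0, 71.5 and 66.1 CPM in the 6 controls and 42.1, 42.4, 46.9, 63.3 and 37.4 in the 5 knockouts. Parp14 had 20.4, 27.6, 21.4, 26.5, 34.5 and 27.7 CPM in controls and 19.3, 17.6, 16.9, 24.4 and 14.9 in knockouts. In both, knockout replicate 4 was the single knockout inside the range of the controls. The changes were -0.42 ± 0.11 for Irf1 and -0.50 ± 0.13 for Parp14 (adjusted p = 0.0245 and 0.019, edgeR), close to those on RFD.

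Ddx58, which encodes the viral RNA sensor RIG-I, had 19.3, 26.1, 23.3, 22.9, 29.1 and 24.9 CPM in HFD controls and 14.6, 15.9, 18.6, 24.6 and 15.3 in knockouts, a change of -0.44 ± 0.13 (adjusted p = 0.0378, edgeR). On RFD it had 22.3, 17.4, 22.9 and 24.1 CPM in controls and 18.1, 17.1, 15.4 and 15.3 in knockouts, which overlap and did not pass. Dtx3l, a ubiquitin ligase that pairs with Parp9, had 16.5 to 23.2 CPM in HFD controls and 13.2 to 19.5 in knockouts, a change of -0.39 ± 0.12 (adjusted p = 0.0375, edgeR). Parp9 itself had 18.7 to 24.7 CPM and 15.9 to 20.5, a change of -0.28 ± 0.09 (adjusted p = 0.048, edgeR), and 18 of 28 alternatives lost it.

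The members' median change was -0.12 on RFD and -0.17 on HFD. The upper bound lay under a doubling for 33 members on RFD and 35 on HFD. The direct test of whether the change differed between diets called no member (1 with an unadjusted p under 0.05 by edgeR) and no gene (0.0%). The direct test of the Clec against the Tfam islet change also called no member by edgeR (3 had an unadjusted p under 0.05), against 8.97% of genes. The Clec libraries carry the lane names 7 and 8, and each called member kept its direction within each lane. The members were called in these same libraries, so this is no separate check against a lane effect. For Irf1 on RFD the difference of mean log2(CPM + 0.5) was -0.37 in lane 7 and -0.55 in lane 8, with 1 knockout library in lane 8.

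Endothelial markers moved in the same knockouts, with 6 of 8 higher and 1 lower on each diet, with summed levels of 596 to 709 CPM in RFD knockouts against 360 to 377 in controls. On HFD the sums were 376 to 718 CPM against 328 to 444, and knockout replicate 4, the library that resembled the controls in Irf1 and Parp14, had 376. Macrophage sums overlapped between knockouts and controls on both diets, although the medians were lower in the knockouts. They were 137 CPM against 196 on RFD and 149 against 187 on HFD. On RFD knockout replicate 1 alone, at 209 CPM, lay within the range of the controls, 180 to 223. The part of cell makeup in the member values was not tested. The counts that follow come from fits with 1 library left out. They have no share of all genes beside them. On RFD no member was called without control replicate 3 or without knockout replicate 3, 1 without control replicate 4, knockout replicate 2 or knockout replicate 4, and 5 without HFD knockout replicate 4. On HFD none was called without knockout replicate 2, 3 or 5, 1 without control replicate 2, control replicate 5 or knockout replicate 1, 3 without control replicate 6 and 11 without knockout replicate 4.

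Diet called no member in either genotype by edgeR, against 0.0406% of genes in controls and 0.0116% in knockouts, although 11 members in controls and 3 in knockouts had an unadjusted p under 0.05. 34 of 39 members were higher on HFD in controls and 36 in knockouts, with medians of 0.23 and 0.20. The matching shares of all genes are not given here, so these counts are not read as a diet effect on the members. The largest change in controls was in Oas3 (2.20 ± 0.63, adjusted p = 0.454, edgeR), an oligoadenylate synthetase at low counts. HFD control replicates 2, 5 and 6 had member means of 3.46, 3.39 and 3.34, and replicates 1, 3 and 4 had 2.79, 2.95 and 2.86. Cxcl10 split the same way, with 3.58, 1.97 and 3.02 CPM in the first 3 and 0.51, 0.561 and 0.221 in the others.

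In Mfn DKO livers no member rose or fell by edgeR, against 5.23% and 4.64% of 17024 genes, and 2 members had an unadjusted p under 0.05. The absence of calls depended on the fit. Members passed with only the groups compared in the fit, and with macrophage markers as a covariate. The median change was -0.11 with 26 of 39 negative, and 29 members had an upper bound under a doubling. Ifi35, an interferon-induced leucine zipper protein, had 27.8 to 37.1 CPM in controls and 19.5, 25.7, 19.6 and 23.1 in Mfn DKO (-0.54 ± 0.20, adjusted p = 0.10, edgeR). Parp9 had 61.3 to 75.8 CPM in controls and 53.0, 40.2, 48.1 and 50.1 in Mfn DKO (-0.51 ± 0.27, adjusted p = 0.228, edgeR). In 4 members all Mfn DKO livers lay below all controls, and in 1, Lgals3bp, all lay above, against 10.3% and 8.95% of genes. Without Tfam KO replicate 2, which shares the fit, 3 members passed: Ifi35 and Parp9 lower and Lgals3bp (0.53) higher. The share of all genes called in these alternative fits is not given here.

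In Tfam KO livers 8 members (20.5%) fell and 1 (2.56%) rose, against 11.3% and 18.1% of all genes. The members' median was -0.84 and 34 of 39 were negative, while all genes had a median of 0.03. The falls were in Stat2 (-0.95 ± 0.30), Oasl1 (-0.84 ± 0.27), Ifi35 (-0.79 ± 0.22), Trim25 (-0.58 ± 0.13), Parp9 (-1.18 ± 0.30), Parp14 (-0.84 ± 0.28), Dtx3l (-1.14 ± 0.33) and Irgm1 (-1.12 ± 0.35), with adjusted p from 0.00779 to 0.0412 (edgeR). Lgals3bp rose by 0.73 ± 0.23 (adjusted p = 0.0289, edgeR).

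These 3 livers differed greatly among themselves. Stat2 had 43.9 CPM in Tfam KO replicate 1, 18.3 in replicate 2 and 66.0 in replicate 3, against 62.7, 74.6, 97, 95.5, 97.7 and 67.6 in controls. Irf9 had 18.3, 7.21 and 35.3 CPM against 33.5, 34.2, 42.6, 45.6, 38.3 and 33.3. Ifit3 had 6.62, 3.38 and 23.1 CPM against 16.3, 21.4, 26.9, 29.0, 25.7 and 21.8. Replicates 1 and 2 lay below every control in all 3 genes, and replicate 3 lay among the controls.

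Irf1 had 14, 10.1 and 45.5 CPM in the Tfam KO livers against 28.6 to 51.0 in controls. Irf7 had 16.6, 3.58 and 49.6 CPM against 45.5 to 102. Gbp3, a guanylate-binding protein, had 7.37, 1.64 and 28.8 CPM against 9.01 to 34.2. Isg15 had 5.46, 1.53 and 19.3 CPM against 9.56 to 27.5. Replicate 3 lay among the controls in all 4, and none of the 4 changes passed. Parp14 followed the same order, with 22.3, 10.1 and 36.8 CPM against 35.5 to 46.2 in controls, and 12 of 21 alternatives lost its call.

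A smaller set was lower in all 3 Tfam KO livers. Parp9 had 28.5, 12.4 and 49.9 CPM against 61.3, 75.8, 73.4, 67.0, 68.2 and 64.4 in controls. Dtx3l had 23.1, 10.1 and 45.7 CPM against 55.7, 63.8, 59.0, 55.5, 59.4 and 55.2. Trim25, a ubiquitin ligase that activates RIG-I, had 73.9, 72.5 and 84.9 CPM against 99.2 to 137, and Ifi35 had 21.3, 10.1 and 24.4 CPM against 27.8 to 37.1. In 6 of 39 members all Tfam KO livers lay below all controls, against 10.2% of genes. In Parp9, Dtx3l and Ifi35 every Mfn DKO liver lay below every control too, with Dtx3l at 49.2, 35, 48.2 and 46.7 CPM in Mfn DKO. The liver comparisons share their controls.

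A few members did not follow the others. Lgals3bp had 86.4, 197 and 89.8 CPM in Tfam KO livers against 63.0, 76.3, 79.7, 91.9, 75.6 and 62.8 in controls, highest in replicate 2. Ifit2 had 4.85, 14.9 and 9.10 CPM against 5.82 to 8.75, and Usp18 had 11.2, 23.6 and 12.5 against 7.35 to 21.4, both also highest in replicate 2. The changes of Ifit2 and Usp18 did not pass.

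Counted over the list, replicate 1 lay below all 6 controls in 33 of 39 members, replicate 2 in 34 and replicate 3 in 6. Replicate 2 was the lowest of all 13 livers in 33 members and above all controls in 3. Member means were 3.15, 2.22 and 4.22 against 3.75 to 4.45 in controls. The Tfam level was alike in the 3, at 15, 13.1 and 15.9 CPM against 54.2 to 66.2 in controls. Replicate 2 also had the lowest summed hepatocyte markers (8 genes; 22446 CPM against 93495 to 138043 in controls, and 59756 and 94159 in the other two), the lowest lymphocyte sum (2.36 CPM against 11.6 to 16.4) and the highest neutrophil sum (25.9 against 3.90 to 11.8). Its macrophage sum was 413 CPM, with 503 and 971 in replicates 1 and 3 and 548 to 1005 in controls. Whether these libraries' makeup sets the members' levels was not tested.

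Without replicate 3, 31 members fell and 1 rose, with a median of -1.75. Without replicate 1, Ifi35 and Trim25 fell and Lgals3bp rose, with a median of -0.69. Without replicate 2, Ifi35, Trim25, Parp9 and Dtx3l fell and none rose, with a median of -0.47. The share of all genes called in these fits is not given here, so their counts have no background beside them. Ifi35 and Trim25 passed with any single one of the 13 livers left out.

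**Figure D5:**
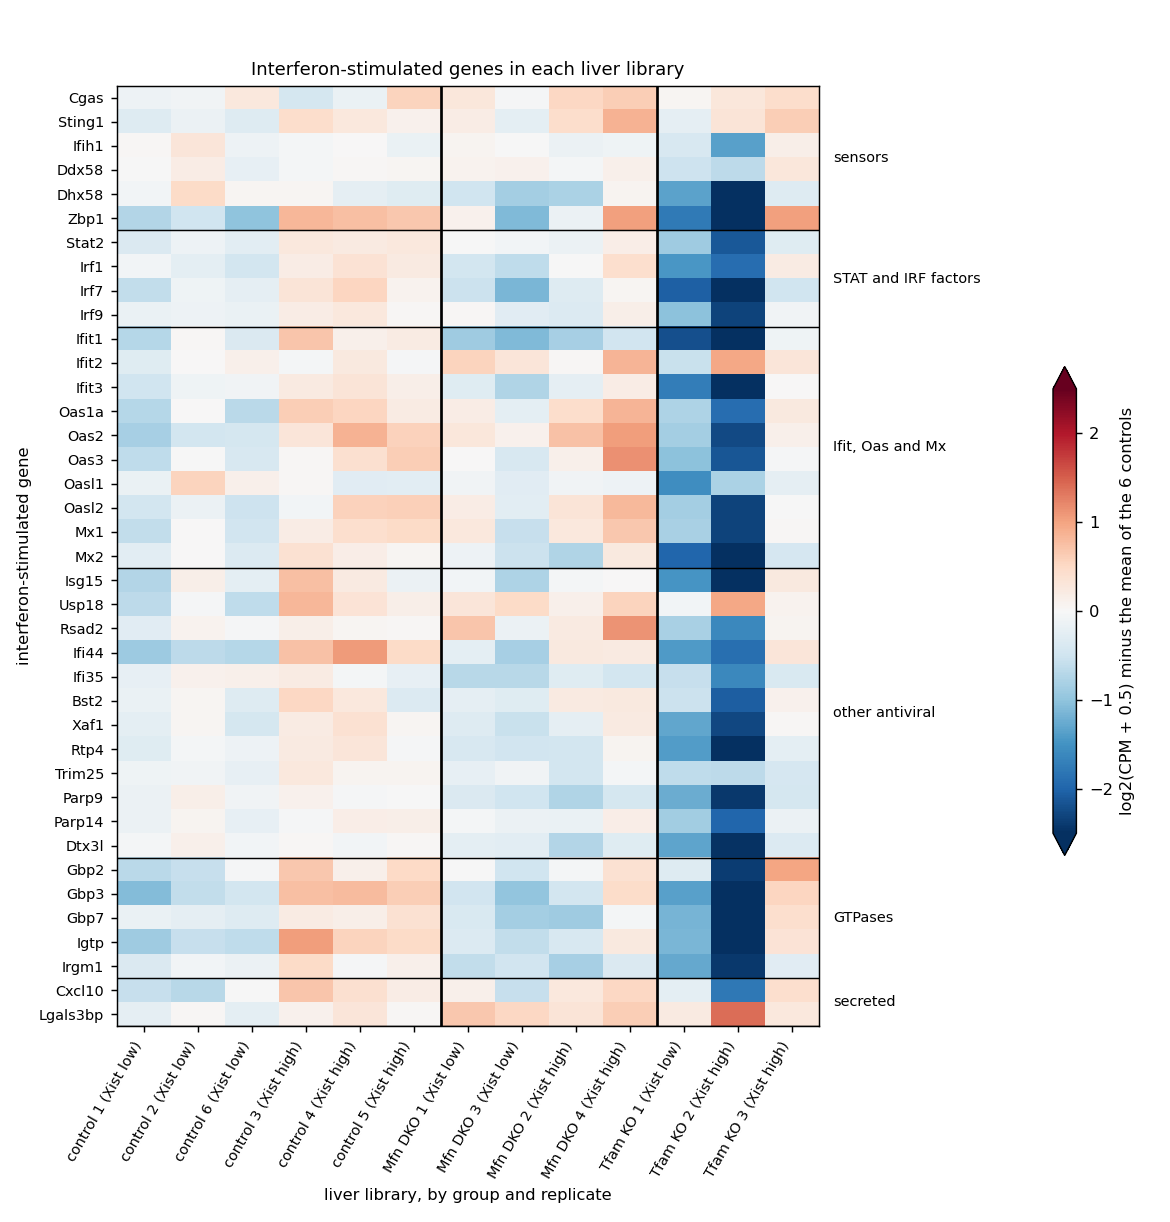
Each of the 39 interferon-stimulated genes (rows) in each of the 13 liver libraries (columns), as log2(CPM + 0.5) minus the mean of the 6 controls, blue lower and red higher. Tfam KO replicates 1 and 2 are blue in most rows, and replicate 3 is near the controls. Control columns with high Xist are redder than those with low Xist.

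The direct test of Tfam KO against Mfn DKO livers called no member by edgeR, against 0.294% of genes, while 37 of 39 differences were negative with a median of -0.66 and 11 had an unadjusted p under 0.05. Without Tfam KO replicate 3, 26 members passed, all lower. For the 37, the 11 and the 26, the matching shares of all genes are not given here. The Tfam change in liver was also set against that in islets in a fit of all 46 libraries, where tissue cannot be told apart from experiment. There 9 members differed, against 8.58% of genes lower and 13.2% higher in liver: Ifih1 (-0.72 ± 0.26), Mx2 (-1.38 ± 0.51), Ifi35 (-0.73 ± 0.20), Xaf1 (-1.17 ± 0.38), Trim25 (-0.57 ± 0.15), Parp9 (-1.11 ± 0.24), Dtx3l (-1.10 ± 0.28) and Irgm1 (-0.89 ± 0.29) were more negative in liver, and Lgals3bp (0.79 ± 0.23) more positive, with adjusted p from 0.000755 to 0.0451 (edgeR). The count was 3 without liver Tfam KO replicate 2 and 32 without replicate 3. The share of all genes called in those fits is not given here. In female islets Parp9 had 18.0 to 25.9 CPM in controls and 17.7 to 19.5 in Tfam knockouts, which overlap.

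The livers carry no sex label, and Xist, the RNA that coats the inactive X chromosome, was above 100 CPM in 3 of 6 controls, 2 of 4 Mfn DKO and 2 of 3 Tfam KO livers and near 0 in the rest. Among the controls, all 3 Xist-high livers lay above all 3 Xist-low livers in 25 of 39 members and below in none, against 15.8% and 12.5% of all genes. The median log2 ratio was 0.46 over the members and 0.03 over all genes. Zbp1 had 21.5, 20.3 and 19.1 CPM in the Xist-high controls and 6.96, 8.21 and 5.66 in the Xist-low ones. Ifi44 had 10.6, 13.6 and 8.85 CPM against 3.08, 3.78 and 3.58, and Gbp3 had 33.5, 34.2 and 30.2 against 9.01, 12.5 and 14. The macrophage sum was 842 to 1005 CPM in the Xist-high controls and 548 to 614 in the Xist-low ones, and its part was not tested. In the Mfn DKO livers the Xist groups overlapped: the member mean was 4.01 and 4.45 in the 2 Xist-high livers and 4.06 and 3.74 in the 2 Xist-low ones. Zbp1 had 10.6 and 24.6 CPM in the former and 12.8 and 5.22 in the latter. Tfam KO replicate 1 was Xist-low, and replicates 2 and 3, the lowest and the highest of the 3 in the member mean, were both Xist-high. With the Xist level as a covariate 13 members fell and 1 rose in Tfam KO livers, and the share of all genes in that fit is not given here.

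Interferon transcripts themselves were at the limit of detection. None of 14 interferon genes passed the filter on low counts in any fit. Ifnb1, the type I interferon that most cells make first, had 2 counts in 1 of 46 libraries, a Mfn DKO liver. Ifng had at most 9 counts, in a Tfam KO liver, and was counted in 12 libraries, Ifnk at most 8 in 13 and Ifnz at most 5 in 15. Ifna5, Ifna6, Ifna12, Ifnl2 and Ifnl3 had no count in any library, where 3 counts per library is the limit that a count of 0 allows.

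Of 10 receptor chains and kinases, 5 rose and none fell in Tfam KO livers, where 18.1% of all genes rose and 11.3% fell. Ifngr1, the ligand-binding chain of the interferon gamma receptor, had 72.0, 138 and 31.8 CPM against 23.2 to 32.6 in controls (1.57 ± 0.31, adjusted p = 0.00379, edgeR). Ifnlr1, the lambda receptor, had 0.77, 8.60 and 0.447 CPM against 0.0528 to 0.247, a rise set mainly by replicate 2. Jak1 had 189, 189 and 151 CPM against 112 to 125 (0.58 ± 0.11), and it also rose in Mfn DKO livers, with 180, 160, 180 and 152 CPM (0.51 ± 0.10). In the islets labelled Clec KO Jak1 fell on both diets (-0.46 ± 0.11 on RFD and -0.40 ± 0.10 on HFD), with 112 to 133 CPM in RFD knockouts against 148 to 186. In Tfam KO islets Jak2 alone of the 10 rose, by 0.24 ± 0.06, where 11.6% of all genes rose. Of all genes 3.54% fell on RFD and 3.95% on HFD, and 5.23% rose in Mfn DKO livers. Calls of single genes are not read as a result about this list.

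Of 15 further sensors and signalling genes, 4 fell and none rose in Tfam KO livers, against 11.3% and 18.1% of all genes. Among the 4 were Irf3 (-0.61 ± 0.11), which switches on interferon transcription, Mavs (-0.61 ± 0.17), the adaptor of RIG-I on mitochondria, and Ikbke (-0.61 ± 0.19), a kinase of Irf3. In Tfam KO islets 3 fell and 1 rose, against 9.29% and 11.6% of all genes: Tbk1 (-0.22 ± 0.05), the main kinase of Irf3, Ticam1 (-0.30 ± 0.08) and Ikbke fell, and Traf6 (0.30 ± 0.06) rose. In Clec islets Traf3 rose on HFD (0.40 ± 0.09), where 5.62% of all genes rose. None passed in Mfn DKO livers, where 5.23% of all genes rose and 4.64% fell.

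Of 12 genes that restrain the response, 11 were tested. In Tfam KO livers 2 rose and 1 fell, against 18.1% and 11.3% of all genes. In Mfn DKO livers 1 fell, against 4.64%. On RFD 1 rose and 2 fell, against 3.99% and 3.54%, and on HFD 1 fell, against 3.95%. In Tfam KO islets 1 fell, against 9.29%. With 11 genes, counts of 1 or 2 are not read as a result about this list. The gene that fell in Tfam KO islets was Socs3, an inhibitor of cytokine receptors (-0.95 ± 0.14, adjusted p = 0.000185, edgeR). It had 7.60 to 12.2 CPM in control females and 4.41, 4.47, 4.43 and 5.52 in knockouts. In Clec KO islets on RFD it rose (0.86 ± 0.19), with 10.2 to 13.6 CPM in controls and 16.1 to 29.2 in knockouts. Rnaseh2b, a subunit of the enzyme that removes RNA from DNA, fell on both diets (-0.64 ± 0.17 and -0.81 ± 0.15) and rose in Tfam KO livers (0.35 ± 0.10). Rnaseh2c, another subunit, fell in Mfn DKO (-1.0 ± 0.24) and Tfam KO livers (-1.27 ± 0.27).

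A further 48 interferon-stimulated genes lie outside the list. In Tfam KO livers 4 of them fell and none rose, against 11.3% and 18.1% of all genes. Ifi27 had 71.4, 27.1 and 97.6 CPM against 145 to 296 in controls (-1.70 ± 0.37, adjusted p = 0.00633, edgeR), and Znfx1, Eif2ak2 and Parp10 fell by less. In Mfn DKO livers, where 5.23% of all genes rose and 4.64% fell, Nlrc5 rose (0.61 ± 0.17) and Parp10 fell (-0.30 ± 0.09). In Tfam KO islets Phf11b fell (-1.06 ± 0.23) and Znfx1, Tor3a and Pml rose by 0.22 to 0.26. There 11.6% of all genes rose and 9.29% fell. In males alone Gbp8 (1.94 ± 0.34), Iigp1 (1.46 ± 0.42) and Gbp6 (1.45 ± 0.42) rose, where 5.24% of all genes rose and 3.69% fell. In the islets labelled Clec KO, Isg20, an RNA exonuclease, rose on both diets (0.98 ± 0.18 and 0.82 ± 0.16), as did Slfn5 (0.68 ± 0.18 and 0.53 ± 0.15). Of all genes 3.99% rose on RFD and 5.62% on HFD. Outside Tfam KO livers the number of the 48 that were called is not given here.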

How the data were processed

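RNA-seq libraries of mouse islets and livers were used as deposited, 1 table per library. The raw counts were taken as the authors deposited them, per gene and not normalized. The deposited CPM equal each count over the library total. The deposited TPM of the authors are per transcript length and were used only to compare levels between genes and tissues. The submitters' processing notes name STAR 2.6.1b, RSEM 1.3.1, featureCounts and build GRCm38. Which tool made which column, the annotation and the use of strand are not given in the sources used here.

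Counts were fitted per experiment with edgeR 4.0.16 (TMM normalization, filterByExpr, quasi-likelihood F-test, Benjamini-Hochberg over all genes tested, R 4.3.3), and called at an adjusted p of at most 0.05. SEs come from the F statistic. A count of members by sign or unadjusted p without the share of all genes is not read as a result. The comparisons of tissues or of islet knockouts came from 1 fit of all 46 libraries. CPM in the text are TMM-normalized. Libraries were grouped by their labels, the groups of an experiment share 1 estimate of spread, and no libraries were identical. Where the labels do not say that animals differed, p-values measure the spread between these libraries.

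Alternatives were DESeq2 1.42.0 (Wald test, and its size factors in edgeR), no filter or 10 counts in every library, a replicate block, marker, lane and Xist covariates, only the groups compared, no sex term, and each library left out. Leaving out control female replicates 3 and 4 together was chosen after seeing the data. The members, lists and tests were chosen with earlier results of these data known. Any member may be named. Members shown in every library were those called in most comparisons, at most 3 per role group, and others with values were chosen after their values were seen. In data simulated from these libraries, changes of 1 in log2 were called in 73.7% of cases for Tfam islets with both sexes (19391 genes fitted), 62.2% for Clec islets on RFD (16986) and 15.2% for Tfam KO livers (16626). Changes of 0.5 were called in 51.5%, 21.2% and 1.03%. Far fewer genes were changed in the simulation than were called in the data. These percentages therefore do not give the chance of calling a changed member. Replicate numbers were not used to pair libraries in the main fits. The correlation of same-numbered libraries had medians of 0.07 in Tfam islets, -0.02 in Clec islets and 0.09 in livers. It ran from -0.15 to 0.21, from -0.25 to 0.31 and from -0.34 to 0.35 in the same order. Medians over so few pairs cannot show that no pairing exists. One gene outside the list is not reported here.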

Additional observations from a re-analysis of the deposited data

Results flagged for a closer look

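The 8 groups of 4 to 6 libraries were examined for the 13 members shown by library and for the member mean. In these 112 sets of values 5 libraries stood apart from the rest of their group, fewer than the 1 in 20 that chance gives. Ifih1 was 50.5 CPM in control liver replicate 2. Ifit2 was 1.09 CPM in HFD knockout islet replicate 5. Dtx3l was 15.3 CPM in RFD control islet replicate 2 and 19.5 CPM in HFD knockout islet replicate 4. Irgm1 was 23.7 CPM in RFD control islet replicate 1.

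The Tfam change differed between liver and islets, by the edgeR test of the difference itself, in 9 members. The liver minus islet difference in log2 was -0.72 for Ifih1, -1.38 for Mx2, -0.73 for Ifi35, -1.17 for Xaf1, -0.57 for Trim25, -1.11 for Parp9, -1.10 for Dtx3l, -0.89 for Irgm1 and 0.79 for Lgals3bp. Over 51 alternatives, Trim25, Parp9 and Dtx3l passed in all 51, Ifi35 and Lgals3bp in 50, Xaf1 in 48, Irgm1 in 47, Mx2 in 33 and Ifih1 in 30. Tissue, experiment and handling cannot be told apart in this test.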

How the results depend on the processing

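For the 40 called member values, 1186 alternative values were computed: 948 stayed past the threshold, 238 did not, and none changed direction. The counts of called members moved more, and the cause was not tested. The share of all genes called under each alternative is not given here, so the counts below have no background beside them. With the DESeq2 Wald test the count was 12 for Tfam KO females, 2 for males, 2 for diet in Clec controls, 16 for Tfam KO livers and 1 for Tfam KO against Mfn DKO livers. With only the groups compared in the fit, which leaves fewer libraries, it was 3 for Tfam KO females, 2 for males, 0 for Clec on HFD, 7 for Mfn DKO livers and 3 for Tfam KO livers. With the replicate block it was 1 for Clec on RFD, 0 on HFD and 0 for Tfam KO livers, and within 1.5 times the main count elsewhere. The macrophage score as covariate gave 0 for Tfam KO males, 1 for Clec on RFD, 11 for Mfn DKO livers and 26 for Tfam KO livers, and the Xist level gave 14 for Tfam KO livers. The acinar score gave 7 for Clec on RFD and 8 on HFD. No filter gave 3 for Tfam KO males and 3 for Clec on HFD, DESeq2 size factors gave 0 for males, and 10 counts in every library gave 1 for Clec against Tfam islets. Without control female replicates 3 and 4 the count was 3 in females and 3 in males.

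With 1 library left out, the counts ran from 2 to 8 for Tfam islets with both sexes, 1 to 11 for females, 0 to 2 for males, 0 to 5 for Clec on RFD, 0 to 11 on HFD, 0 to 3 for Mfn DKO livers, 3 to 32 for Tfam KO livers, 0 to 26 for Tfam KO against Mfn DKO livers, 3 to 32 for Tfam liver against islets and 0 to 1 for Clec against Tfam islets. Where this left 1 library in a group, it was assumed to vary like the others. With 3 Tfam KO livers that differ widely, members that did not pass in liver cannot be read as unchanged. Members near 1 CPM in islets, such as Cxcl10 and Isg15, rest on low counts.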
